A study of Mus musculus with 4 samples.

Results

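Formative and primed pluripotency genes are switched on as embryonic stem cells leave their ground state and prepare for differentiation. The 9 genes described here are Otx2, Fgf5, Etv4, Etv5, Pou3f1, Sall2, Zic2, Foxd3 and Pim2, chosen by symbol, and all 9 were found among the 55421 Ensembl gene identifiers of the count table. They were measured in E14 mouse embryonic stem cells, a line from the blastocyst of 129/Ola mice, grown on gelatin in a serum medium that contained LIF, a cytokine that holds back differentiation. Cells with the miR-290-295 cluster knocked out (KO) gave 2 libraries and their wild-type counterpart (WT) gave 2, and the labels give no other treatment or allele. The series calls the libraries biological duplicates but does not say whether the KO pair comes from 1 clone. The p-values below set the difference between groups against the spread between libraries, which may not cover the spread between clones. Poly(A) RNA was counted by QuantSeq, a method in which a transcript gives reads near its 3' end, so that a count needs no correction for transcript length but the text does not compare levels between different genes.

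In the mouse, naive embryonic stem cells resemble the preimplantation epiblast, formative cells the epiblast soon after implantation, and primed cells the later epiblast. The passage between these states depends on FGF and ERK signalling, which acts through ETS factors, and on transcription factors such as OTX2 that open new enhancers together with OCT4. The microRNAs of the miR-290-295 cluster are abundant in naive cells and lower the output of messenger RNAs that carry a match to their seed, bases 2 to 8 of the mature strand.

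The mature sequences are shown because the seed decides which transcripts can be matched. They come from RefSeq on GRCm38.p6, lie on the plus strand of chromosome 7 and are written 5' to 3' with the seed in capitals. The first 3 share the seed AAGUGCU, and the other 2 carry AAGUGCC and AAGUGCA. The sequences used held no 3' strand of miR-292a, so this list does not cover the whole cluster.
mmu-miR-291a-3p: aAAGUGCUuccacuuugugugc
mmu-miR-294-3p: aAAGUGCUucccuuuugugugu
mmu-miR-295-3p: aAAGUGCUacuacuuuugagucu
mmu-miR-290a-3p: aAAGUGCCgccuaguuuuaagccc
mmu-miR-291b-3p: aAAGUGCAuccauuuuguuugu

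Of the 9 genes, 8 held no GCACTT, the 6-base match to this seed family, in their longest annotated 3' UTR (588 to 2161 bases, against a median of 1164 for all tested genes), and 33.3% of 12484 tested genes with a 3' UTR held one. The sense strand of each UTR was searched. None of the 9 held AGCACTT, the full match to bases 2 to 8 of miR-294-3p, which 17.6% of tested genes held. For GCACTTA, the short match followed by an A, the share of tested genes was 8.07%, for AGCACTTA, which contains both, 3.46%, and for TGCACTT, the match of miR-291b-3p, 14.0%, again with 0 of the 9. All of these words contain GCACTT. The exception was Pim2, with 1 GGCACTT, which among the strands listed matches the seed of miR-290a-3p and was in 9.68% of tested genes. Matches to the seeds of other strands of the cluster were found in Etv5 (CTTTGAT, miR-291a-5p and miR-291b-5p, in 13.9% of tested genes), Fgf5 (ATTTGAG, miR-295-5p, 13.1%) and Pou3f1 (TTTTGAG, miR-294-5p, 20.8%). The remaining seed matches searched, GTTTGAG in 13.7% of tested genes and GCGGCAC in 1.79%, were in 0 of the 9. The 4 matches are shown with their flanks, from the GENCODE vM21 transcripts of the GRCm38 reference mouse strain, written in the sense of the transcript with the match in capitals. A match of letters is a description of the reference sequence and not a measured site.
Pim2, chrX:7882826-7882855, plus strand: gtccctacactGGCACTTcctatactacca
Etv5, chr16:22382763-22382792, minus strand: attttgttttgCTTTGATttgggggggaag
Fgf5, chr5:98275783-98275812, plus strand: aaggcttcgtgATTTGAGgatggttagcat
Pou3f1, chr4:124659880-124659909, plus strand: aaaaaaattttTTTTGAGtgttcatttttc

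The count table held between 9925557 and 12726123 counts per library. A count of 0 allows up to 3 counts at a one-sided 95% limit, which corresponds to 0.236 to 0.302 counts per 1000000 counts of the library (CPM). These limits, and the intervals below, describe counting error alone, because PCR copies of a molecule could not be told apart. The 7 plus-strand microRNA genes of the cluster held 0 counts in both KO libraries, and 88 and 39 in WT libraries 1 and 2. All 7 markers of embryonic stem cells were present in every library, with summed levels of 2425 to 2571 CPM in KO and 2394 to 2401 in WT. The sums hide changes of single markers. Of the 7, 0 were called higher in KO and 2 lower, Utf1 and Lin28a, whose values are given below.

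The 9 genes did not move as a block, and their coordinates below are those of GENCODE vM21 on GRCm38. The zinc finger genes Sall2 and Zic2 and the ETS factor gene Etv5 were higher without the cluster, the ETS factor gene Etv4 was lower, and Otx2, Pou3f1, Foxd3 and Pim2 did not pass the test. That makes 3 of 8 tested genes higher in KO, where 7.42% of all 14427 tested genes were, and 1 lower, where 4.96% were (edgeR quasi-likelihood test, adjusted p below 0.05). The median log2 fold change (KO over WT) of the 8 was 0.13, with 4 above 0, and that of all tested genes was -0.01. Fgf5 had too few counts to be tested. In 7 of the 8 tested genes the KO and WT libraries did not overlap in CPM, which was also so for 58% of all tested genes. The calls changed with the library left out, as did the number of calls over all genes, and such fits have fewer libraries. The fold changes of the called genes kept their sign in these fits. They ran from 0.41 to 0.83 for Etv5, 1.53 to 1.99 for Sall2, 1.52 to 2.65 for Zic2 and -1.50 to -0.96 for Etv4.

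**Figure D1:**
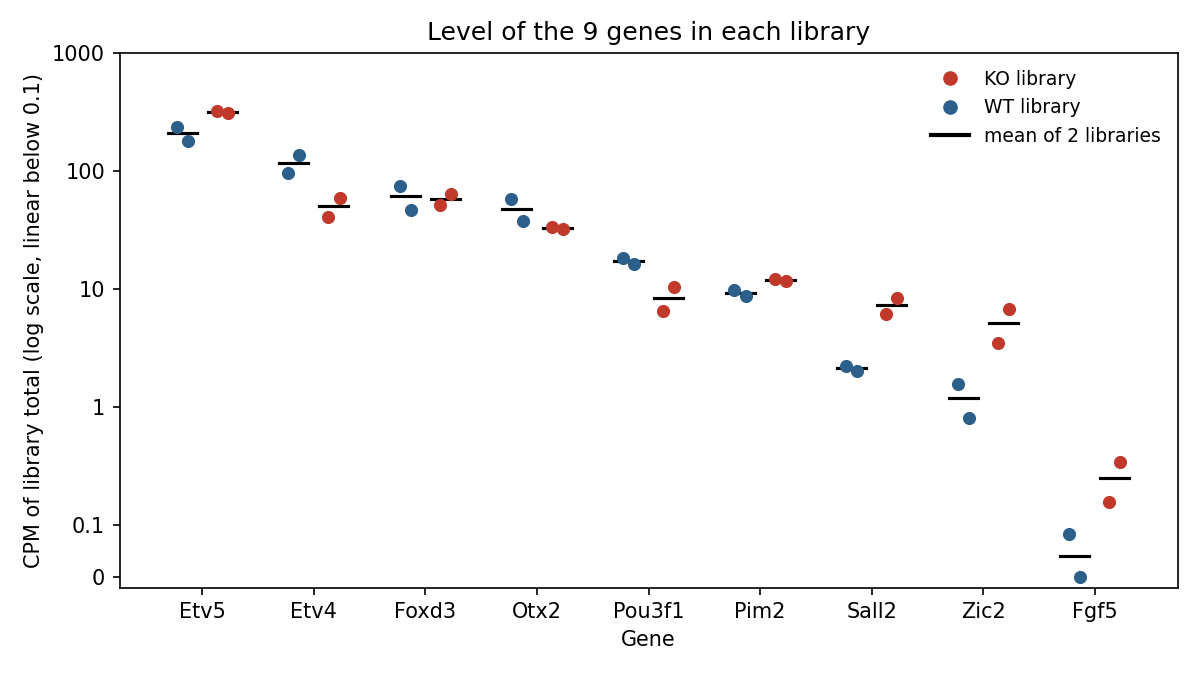
Level of each of the 9 genes in CPM (vertical axis, logarithmic above 0.1 and linear below), with 1 point per library, blue for WT and red for KO, and black lines for the mean of 2 libraries. Sall2, Zic2, Etv5 and Pim2 are higher in both KO libraries than in both WT libraries, Etv4, Pou3f1 and Otx2 are lower in both, and the Foxd3 points overlap.

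Etv4 and Etv5, close relatives of the PEA3 group of ETS transcription factors and targets of FGF and ERK signalling, moved in opposite directions. Etv4 (ENSMUSG00000017724, chr11:101769742-101785371, minus strand) had 40.9 and 59.3 CPM in KO libraries 1 and 2, and 96.4 and 137 in WT libraries 1 and 2. Both KO libraries were below both WT libraries. Etv4 fell by 1.21 on the log2 scale (SE 0.23, adjusted p = 0.0111) and was 2.32-fold lower. Its mean was 117 ± 29.0 CPM for WT and 50.1 ± 13 for KO (SD, n = 2). Without KO library 1 its value was -0.96 (adjusted p = 0.056), and over 11 alternatives the adjusted p lay between 4.64e-08 and 0.056.

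Etv5 (ENSMUSG00000013089, chr16:22381309-22439719, minus strand) had 324 and 311 CPM in the KO libraries against 236 and 181 in the WT libraries. The KO pair lay close together and above both WT libraries. Its mean was 208 ± 38.7 CPM for WT and 317 ± 8.66 for KO (SD, n = 2), and Etv5 rose by 0.61 on the log2 scale (SE 0.17, adjusted p = 0.045). This is the smallest of the called changes among the 9, at 1.52-fold. The call was lost without KO library 1 (0.59, adjusted p = 0.205), KO library 2 (0.64, 0.151) or WT library 2 (0.41, 0.0791), and with a filter at a mean CPM of 10 (0.59, 0.0599), with adjusted p-values between 0.00249 and 0.205 over all 11 alternatives.

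The ratio of Etv4 to Etv5 counts within a library needs no scaling between libraries. It was 0.127 and 0.191 in KO and 0.409 and 0.76 in WT, with no overlap and a mean difference (KO minus WT) of -1.84 on the log2 scale. With 2 libraries per group the smallest p of an exact two-sided permutation test is 0.333, so this ratio carries no test, and the pair was chosen after its values were seen. Etv1, the remaining PEA3 gene, had 20.4 and 32.8 CPM in KO and 29.1 and 18.1 in WT and did not pass (0.16, SE 0.30). The ratio of Etv1 to Etv5 counts was 0.0629 and 0.105 in KO and 0.124 and 0.1 in WT, so the groups overlapped.

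Sall2 and Zic2 had the largest increases among the 9. Sall2 (ENSMUSG00000049532, chr14:52311172-52328762, minus strand) encodes a zinc finger transcription factor of the spalt family. It had 6.13 and 8.41 CPM in the KO libraries and 2.22 and 2.02 in the WT libraries, from 78, 99, 27 and 20 counts. Both KO libraries were well above the WT pair, whose members nearly coincided. The means were 2.12 ± 0.145 CPM for WT and 7.27 ± 1.62 for KO (SD, n = 2). Sall2 rose by 1.77 (SE 0.40, adjusted p = 0.0223), or 3.42-fold. Without KO library 2 the value was 1.53 and the call was lost (adjusted p = 0.149, with 0.000993 to 0.149 over the 10 alternatives in which it was tested).

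Zic2 (ENSMUSG00000061524, chr14:122475435-122479852, plus strand) encodes a zinc finger factor that binds enhancers of primed cells and is needed in the neural plate. It held 44 and 79 counts in the KO libraries and 19 and 8 in the WT libraries, with 95% Poisson intervals of 32.0 to 59.1, 62.5 to 98.5, 11.4 to 29.7 and 3.45 to 15.8. These correspond to 3.46, 6.71, 1.56 and 0.806 CPM, and the libraries within each group differed 1.94-fold. Both KO libraries were above both WT libraries. The means were 1.18 ± 0.535 CPM for WT and 5.09 ± 2.30 for KO (SD, n = 2), and Zic2 rose by 2.07 (SE 0.55, adjusted p = 0.0392), or 4.19-fold. The call was lost without KO library 2 (1.52, adjusted p = 0.293) or WT library 2 (1.67, 0.0711), and the adjusted p stood between 0.000753 and 0.293 over the 10 alternatives in which it was tested.

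Otx2 and Pou3f1, transcription factor genes used as markers of the formative state, had lower values in KO but did not pass the test. Otx2 (ENSMUSG00000021848, chr14:48657677-48673819, minus strand) encodes a homeodomain factor that drives the exit from the naive state and also acts in the visceral endoderm. It had 33.2 and 32.1 CPM in the KO libraries and 57.5 and 37.7 in the WT libraries, so WT library 2 lay close to the KO pair. The log2 fold change was -0.55 (SE 0.23, adjusted p = 0.162). The means were 32.6 ± 0.729 CPM for KO and 47.6 ± 14.0 for WT (SD, n = 2). It was -0.19 without WT library 1 and -0.84 without WT library 2, where it passed (adjusted p = 0.00805, against 0.00805 to 0.59 over 11 alternatives). Otx2os1, a non-coding gene that overlaps Otx2 on the opposite strand, held 7 counts in the first library of each group and 0 in the second.

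Pou3f1 (ENSMUSG00000090125, chr4:124656807-124660655, plus strand), also known as Oct6, encodes a POU factor of the early epiblast and of neural commitment. It had 6.44 and 10.3 CPM in KO against 18.2 and 16.3 in WT, with both KO libraries below both WT libraries. The log2 fold change was -1.04 (SE 0.30), a 2.06-fold lower level, and missed the threshold with an adjusted p of 0.0525. Its means were 8.36 ± 2.72 CPM for KO and 17.2 ± 1.31 for WT (SD, n = 2). The call depended on the settings: DESeq2 gave -1.05 (adjusted p = 0.0349), leaving out the low-count filter gave -1.04 (adjusted p = 0.0102) and leaving out WT library 2 gave -1.14 (adjusted p = 0.0235), all past the threshold, while the adjusted p reached 0.352 over the 11 alternatives, whose values ran from -1.41 to -0.74. Gm2164, an antisense gene that overlaps Pou3f1, held 1 count, in WT library 1.

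**Figure D2:**
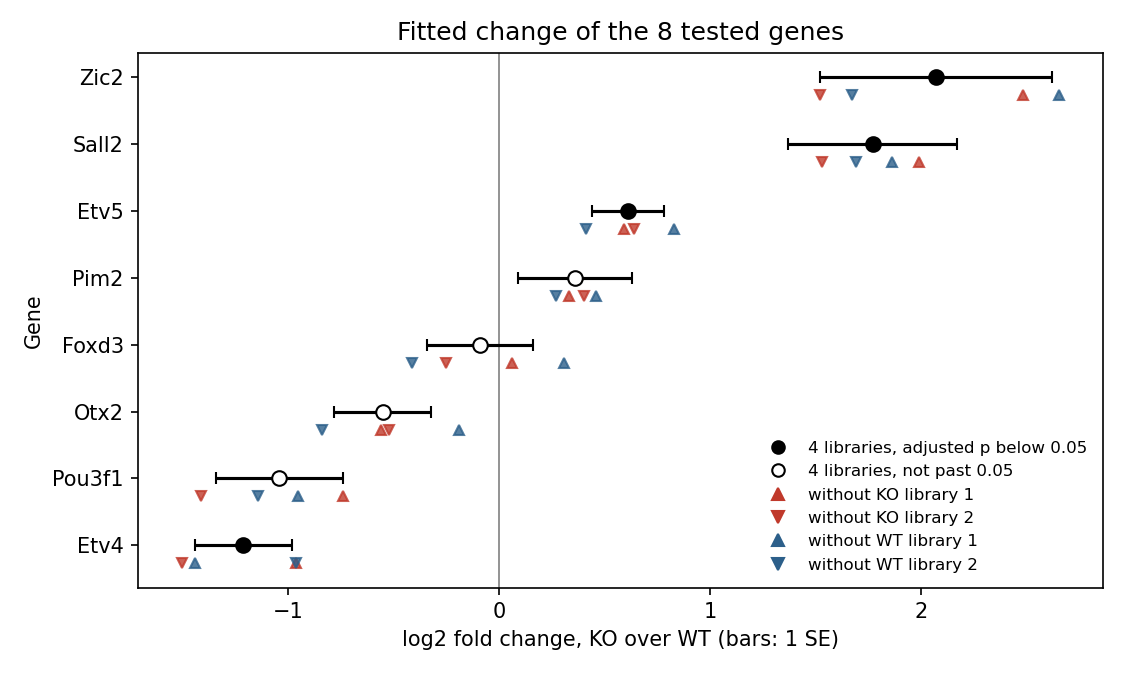
Fitted log2 fold change of KO over WT (horizontal axis) for the 8 tested genes, as circles with bars of 1 standard error, filled where the adjusted p is below 0.05, and triangles for the fits with 1 library left out. Zic2 ranges from 1.52 to 2.65 and Etv4 from -1.50 to -0.96 across these fits, while Foxd3 ranges from -0.41 to 0.31 and crosses 0.

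Foxd3 and Pim2 gave no call. Foxd3 (ENSMUSG00000067261, chr4:99656299-99658622, plus strand) encodes a forkhead factor that stem cells need for self-renewal and that acts at enhancers during the passage to the primed state. It had 51.1 and 63.4 CPM in KO and 75.1 and 46.6 in WT, and the groups overlapped. Its log2 fold change was -0.09 (SE 0.25, adjusted p = 0.845) and its sign changed with the library left out, to 0.06 without KO library 1 and 0.31 without WT library 1. Pim2 (ENSMUSG00000031155, chrX:7878262-7883432, plus strand) encodes a serine and threonine kinase that promotes survival. It had 12.2 and 11.6 CPM in KO and 9.70 and 8.77 in WT, with both KO libraries above both WT libraries. The log2 fold change of 0.36 (SE 0.27, adjusted p = 0.437) did not pass under any of 11 alternatives (0.27 to 0.46), and Pim2 is the gene with the miR-290a-3p match shown above.

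Fgf5 (ENSMUSG00000029337, chr5:98254184-98277030, plus strand), a secreted FGF ligand and the classical marker of the postimplantation epiblast, was near the limit of detection in every library. It held 2 and 4 counts in the KO libraries and 1 and 0 in the WT libraries, where 0 of 9925557 counts in WT library 2 allows up to 0.302 CPM by the one-sided limit. The ratio of summed counts, KO over WT, was 5.41 with an exact 95% counting interval of 0.657 to 249, so no difference was detectable at this depth.

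Paralogs of the 9 genes were looked at from a list of 19, of which 8 passed the filter. Of these, Sall3 and Fgf4 rose and Pim3 fell. Counts of called genes in this and the following lists are to be read beside all tested genes, of which 7.42% were higher and 4.96% lower. Sall3 had 16.6 and 29.8 CPM in KO against 8.06 and 2.62 in WT and rose by 2.09 (SE 0.48, adjusted p = 0.0231), a call lost without KO library 2 (1.62). Zic5, which lies in a head-to-head pair with Zic2, had 49.6 and 68.4 CPM in KO against 35.9 and 15.7 in WT and just missed the threshold (1.18, SE 0.35, adjusted p = 0.0558). It passed under 5 of 11 alternatives. Other spalt family genes did not pass: Sall4 had a log2 fold change of 0.03 (SE 0.18) and Sall1 0.50 (SE 0.16, adjusted p = 0.0699). Sall1 had 174 and 183 CPM in KO against 136 and 117 in WT, and passed without a low-count filter (0.50) and without WT library 1 (0.63). Sall4 turned to -0.17 without WT library 2.

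Within a library, Sall2 over Sall4 and Zic2 over Zic5 gave ratios without overlap between groups, again for pairs chosen after their values were seen. Sall2 over Sall4 was 0.0268 and 0.0425 in KO and 0.00939 and 0.0111 in WT. Zic2 over Zic5 was 0.0697 and 0.0981 in KO and 0.0435 and 0.0513 in WT. Both were higher in each KO library than in either WT library. Pim2 over Pim3, also chosen with its values in view, was 0.0328 and 0.0223 in KO and 0.0141 and 0.0131 in WT. In that pair Pim2 was not called and Pim3 was called lower. Among the Pim kinases, Pim3 had 372 and 518 CPM in KO and 688 and 667 in WT and fell by 0.60 (SE 0.17, adjusted p = 0.0495), and Pim1, a STAT3 target, gave 0.41 (SE 0.23) and passed only without WT library 2 (0.83). The Pim3 call was lost without KO library 1 (-0.38), with a filter at a mean CPM of 10 (-0.63) and after thinning to equal depth (-0.61). Fgf4, the FGF ligand of naive cells, rose by 0.80 (SE 0.16, adjusted p = 0.0134), with 152 and 180 CPM in KO and 96.6 and 94.2 in WT, and lost its call without KO library 2 (0.68). The other 11 paralogs had too few counts to be tested, and 3 of them held 0 counts in every library.

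**Figure D3:**
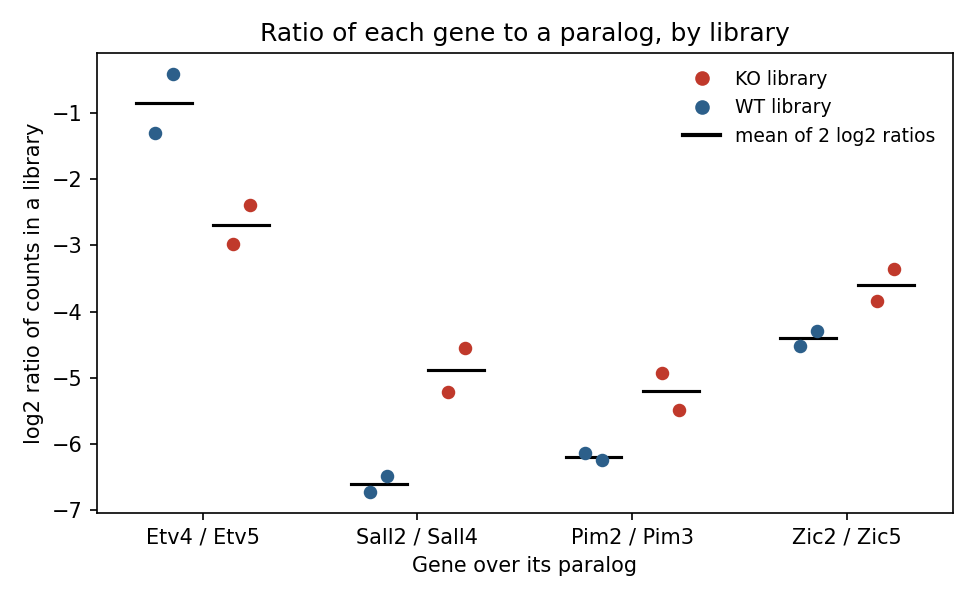
Log2 ratio of the counts of a gene to those of a paralog within the same library (vertical axis), with 1 point per library, blue for WT and red for KO, and black lines for the mean of 2 log2 ratios. Etv4 over Etv5 is lower in both KO libraries, and Sall2 over Sall4, Zic2 over Zic5 and Pim2 over Pim3 are higher in both. Pim2 itself was not called, while Pim3 was called lower. Etv1 over Etv5, which overlapped between the groups, is not drawn.

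Other genes of the formative and primed states likewise moved both ways. Of 25 listed genes 20 were tested, 3 were higher in KO and 5 lower, with a median log2 fold change of -0.16. The 3 that rose were Lef1, Sp5 and Tcf7l1. Lef1, a transcription factor of the Wnt pathway, had 9.51 and 7.90 CPM in KO and 0.822 and 0.605 in WT and rose by 3.58 (SE 0.45, adjusted p = 0.00177). Sp5, a Wnt target, rose by 2.87 (SE 0.59, adjusted p = 0.0155), with 2.99 and 3.14 CPM in KO. In WT it had 0.329 and 0.504 CPM, from 4 and 5 counts, near the limit of detection. Tcf7l1, a repressor that favours the exit from the naive state, rose by 0.65 (SE 0.17, adjusted p = 0.0351). Sp5 and Tcf7l1 lost their calls without KO library 1 or KO library 2, and Tcf7l1 also without WT library 2.

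The genes that fell most clearly were Sox4 and Tcf15. Sox4, a SOX-family transcription factor, had 19.1 and 27.7 CPM in KO and 68.1 and 89.9 in WT and fell by 1.75 (SE 0.23, adjusted p = 0.00221). Tcf15, a bHLH factor that primes naive cells for differentiation, had 55.2 and 77.8 CPM in KO and 189 and 194 in WT and fell by 1.52 (SE 0.19, adjusted p = 0.00165). Both kept their calls under all 11 alternatives. Utf1, a chromatin-associated factor, fell by 0.91 (SE 0.15, adjusted p = 0.00568), Lin28a, an RNA-binding protein that blocks let-7, by 0.84 (SE 0.18, adjusted p = 0.0185), and the fifth, the DNA methyltransferase gene Dnmt3b, by 0.76 (SE 0.19, adjusted p = 0.0348). Utf1 lost its call without KO library 1 (-0.77), Lin28a without KO library 2 (-0.64), and Dnmt3b when either KO library (-0.89 and -0.64) or the first WT library (-0.52) was left out. The count of 5 lower genes was 3 without either KO library, and the count of 3 higher genes was 1 without KO library 2.

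Naive pluripotency genes were no more uniform. All 15 were tested, 2 were higher (Klf2, by 0.94, SE 0.19, and Fgf4) and 3 were lower, with a median of 0.26. The lower ones were Klf4, by 1.59 (SE 0.21), Tbx3, by 1.00 (SE 0.16), and Tcl1, by 0.87 (SE 0.16). Tcl1 lost its call without KO library 2 (-0.81) and Fgf4 as given above. Klf5, with 1906 and 2461 CPM in KO and 1600 and 2198 in WT, did not pass (0.21, SE 0.18). Nanog, with 541 and 550 CPM in KO and 428 and 453 in WT, did not pass (0.31, SE 0.13, adjusted p = 0.154), and none of the 4 core genes did: Sox2 (0.44, SE 0.15) and Dppa5a (0.50, SE 0.16) were above 0.4 and Pou5f1 and Sall4 near 0. With other settings Sox2 and Dppa5a passed, each without a low-count filter and without 1 of the WT libraries.

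The list of FGF receptors, which lie upstream of Etv4 and Etv5, and of ERK feedback genes had 16 tested members, with a median of -0.38. Of these, 1 was higher (6.25%) and 2 were lower (12.5%), beside 7.42% and 4.96% of all tested genes. Fgfr2 had 33.7 and 17.1 CPM in KO and 5.51 and 3.22 in WT and rose by 2.52 (SE 0.40, adjusted p = 0.005). Spry4, a feedback inhibitor, had 23.8 and 41.5 CPM in KO and 138 and 98.5 in WT and fell by 1.86 (SE 0.28, adjusted p = 0.00388), and Fgfr4 fell by 2.22 (SE 0.60, adjusted p = 0.0427) from levels of at most 3.02 CPM. The Fgfr4 call was lost whichever of the 4 libraries was left out. Spry2, another feedback inhibitor, gave -0.78 (SE 0.24, adjusted p = 0.063) and passed under 4 of 11 alternatives, among them the fits that leave out the second library of KO (-1.13) or of WT (-1.02). The count of 2 lower genes in this list was 1 when the first library of either group was left out, and 3 for the second KO and 4 for the second WT library. Dusp6, the phosphatase that removes ERK activation, gave 0.36 (SE 0.36) with 230 and 547 CPM in KO and 377 and 227 in WT.

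**Figure D4:**
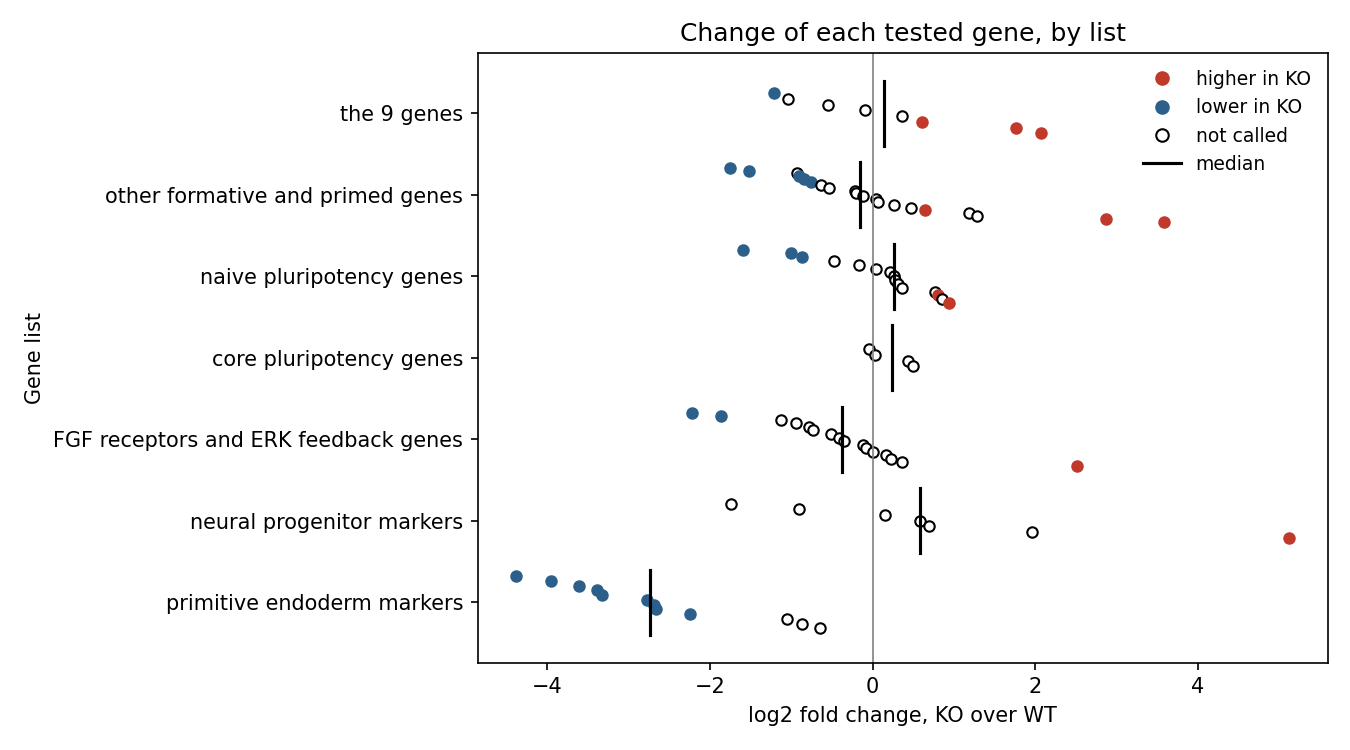
Log2 fold change of KO over WT (horizontal axis) for each tested gene of 7 lists, red where higher and blue where lower at an adjusted p below 0.05, white where not called, with black lines at list medians. The 9 genes, the other formative and primed genes and the naive genes each hold genes called in both directions, while the primitive endoderm markers, with a median of -2.73, lie below 0.

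Several of the 9 genes are also used by other cell types, whose markers were compared between the groups as lists. Primitive endoderm markers, which bear on Otx2, were lower for 9 of 12 tested genes and higher for 0, with summed levels of 26.1 to 28.5 CPM in KO and 183 to 196 in WT. Gata6, a transcription factor that defines this lineage, fell by 3.33 (SE 0.40), Dab2 fell by 4.38 (SE 0.33), Col4a1 fell by 3.95 (SE 0.23) and Lama1 fell by 2.25 (SE 0.26). Gata6 had 1.02 and 1.78 CPM in KO and 15.9 and 12.4 in WT. Of 7 tested neural progenitor markers, which bear on Zic2, Sall2, Pou3f1 and Otx2, 1 was higher (Pax6, 16.0 and 16.4 CPM in KO and 0.411 and 0.504 in WT) and 0 were lower, with summed levels of 82.6 to 108 CPM in KO and 81.4 to 95.2 in WT. Of the 7, 5 had a log2 fold change above 0, and the median was 0.58. Sox1, a defining marker of neural progenitors, had a log2 fold change of 0.15 (SE 0.37). Zfp521 (1.96, SE 0.66, adjusted p = 0.0862) and Nes (0.69, SE 0.40) were higher in both KO libraries than in both WT libraries but were not called. Map2 (-0.91, SE 0.35) was lower in both KO libraries and was not called. Tubb3 (0.58, SE 0.33) and Neurod1 (-1.74, SE 0.52, with 53.7 CPM in WT library 1 and at most 13.1 in the others) did not pass. Of 11 alternatives, Tubb3 passed under 1 and Neurod1 under 2, among them the fit without a low-count filter (-1.73 for Neurod1). With 1 library left out, Tubb3 ran from 0.01 to 0.99 and Neurod1 from -2.42 to -0.35. Neurog2 and Olig2 held at most 1 count in any library. Fibroblast markers were lower for 3 of 4 tested genes (Thy1, Col5a1 and Col1a1), with summed levels of 16.6 to 27.2 CPM in KO and 43.1 to 64.6 in WT, and Col3a1 and Postn held 0 counts in every library. The count of 3 fell to 0 without KO library 1 and to 1 without any of the other libraries. Markers of the 2-cell-like state, with 2 of 3 tested genes higher (Zscan4d and Gm8300, not Zscan4c), summed to 6.29 to 12 CPM in KO and 1.11 to 2.38 in WT. Their count of 2 was 0 without KO library 2, 1 without KO library 1 or WT library 2 and 3 without WT library 1, and Gm8300 passed under 2 of 10 alternatives. The part of these cells in the values of the 9 genes was not tested, and in a bulk sample fewer cells of a type and less RNA per cell cannot be told apart.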

How the data were processed

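QuantSeq 3' libraries of poly(A) RNA from 4 samples were counted by the authors, who deposited the raw, unnormalized counts of each Ensembl gene in 1 table. The submitters' processing notes name Trim Galore and GRCm38. Not given in the sources used here were the aligner, counter, strand setting and annotation, so values of overlapping genes and close paralogs are uncertain. Identifiers were named with GENCODE vM21 (55240 of 55421 matched; the rest held 0.0025% of counts).

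The 2 groups were compared in edgeR 4.0.16 under R 4.3.3 (quasi-likelihood F test, TMM scaling, filterByExpr), with Benjamini-Hochberg adjustment over 14427 genes at 0.05. Standard errors came from the fold change and its F value. The biological coefficient of variation was 0.198. CPM values use library totals, with mean ± SD. Pairs of libraries in 1 group differed beyond sampling noise (chi-square per degree of freedom 11.3 for KO and 18.9 for WT). The code was tested on simulated counts. Python 3.11.15 searched the longest 3' UTR of each gene for seed matches, with no test.

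The 9 genes, the lists and the tests were chosen with earlier results of these data known. Named were the 9 genes, overlapping genes with a count, tested paralogs, up to 4 called genes per list and direction, and the 2 genes of each list with the highest mean CPM. Dnmt3b, Pou5f1, Sox1, Zfp521, Nes, Map2, Neurog2, Olig2, Col3a1 and Postn lie outside this rule, picked with their values in view. Some listed genes are not reported here. Alternatives were each library left out, counts thinned to equal depth, the replicate block, scaling by DESeq2 1.42.0 size factors or library totals, the test of DESeq2, and a filter at mean CPM 10 or none.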

Additional observations from a re-analysis of the deposited data

How the results depend on the processing

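Among the 9 genes, the number higher in KO was 3, and 0 at a mean CPM of at least 10, where Sall2 and Zic2 were not tested, 0 with the replicate block (adjusted p of 0.0575 for Sall2, 0.101 for Zic2 and 0.0586 for Etv5), and 0 to 3 with 1 library left out. The number lower was 1, and 2 with the DESeq2 test, 2 without a low-count filter, where Pou3f1 passed as well, and 0 to 3 with 1 library left out. Over all genes, 1071 were higher and 715 lower; a mean CPM of at least 10 gave 636 and 391, the replicate block 638 and 370, no filter 1590 and 1193, and 1 library left out 556 to 1477 and 285 to 1011. Replicate numbers are shared between groups in the titles, but deviations of same-numbered libraries did not correlate (r = -0.0703 across genes), so the block is not used as a pairing. The block also ended the calls of Sall3 (0.0774), Pim3 (0.0717), Tcf7l1 (0.0552), Fgfr4 (0.0871), Col1a1 (0.102), Col5a1 (0.0806), Zscan4d (0.0516) and Gm8300 (0.0946). Signs turned with 1 library left out for genes near 0: Foxd3 (-0.41 to 0.31), Etv1 (-0.22 to 0.57), Sall4 (-0.17 to 0.25), Pou5f1 (-0.15 to 0.07), Sox1 (-0.25 to 0.49) and Dusp6 (-0.39 to 0.86). Of 86 alternative values for the 8 tested genes, 69 kept direction and call, 11 lost the call, 4 gained it and 2 turned. The cause of these changes was not tested. Fits with a lone library in a group assume that it varies like the other pair. Depth limits Fgf5, with at most 4 counts per library, and Zic2.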
